A study of Mus musculus with 6 samples.

Results

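The BCL2 family was followed in AB22 cells, a line of murine malignant mesothelioma (a tumour of the lining of body cavities), with and without silencing of Hmgb1, the gene of an abundant DNA-bending chromatin protein. The 10 genes are Bcl2, Bcl2l1, Bcl2l2, Mcl1, Bak1, Bok, Bid, Bad, Bcl2l11 and Bmf, picked by symbol from the 12134 genes of an RNA-seq table. All 10 have a row there, and all 10 passed the filter for low values, which kept genes averaging 0.5 RPKM or more. RPKM counts the reads of a gene per kilobase of its length, scaled to a size set for each library, so it is a level per length. Bax, Bbc3 and Pmaip1, also of this family, are treated with the p53 targets and enter below only for comparison.

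The 2 groups are AB22 cells infected with pTRIPZ virus for a control hairpin (shCTRL) or for a hairpin against Hmgb1 (shHMGB1), 3 biological replicates each, lettered A, B and C. Both groups had puromycin selection, 5% oxygen, doxycycline at 1 µM to switch the hairpin on, and 7 to 10 days of it before use. RNA came from cells synchronized in G1, and no radiation dose is given for these libraries. The sources used here do not say whether the infected cells were a pool or a clone, or whether infections were repeated for each replicate, and a p-value covers no more than the spread among these 6 cultures. The series asks how chromatin bears on DNA breaks made by radiation, and the RNA comparison shows what the silenced cells express, with no dose given.

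BCL2 family proteins decide whether the outer membrane of mitochondria stays closed. BAK1, BAX and BOK are effectors that can open it and release cytochrome c. The anti-apoptotic proteins BCL2, BCL-XL (from Bcl2l1), BCL-W (from Bcl2l2) and MCL1 hold BAK1 and BAX back. The BH3-only proteins (BID, BAD, BIM from Bcl2l11, BMF) carry damage or stress signals by binding other members. Many tumours, mesothelioma included, depend on BCL-XL and MCL1 to stay alive.

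What joins the 3 classes is the BH3 segment, a short helix that fits into the groove of a partner. Its coding stretch is printed below for each member, because all 10 share it. It was found in the GENCODE M21 coding models as a codon for leucine or methionine, 3 codons other than proline, a codon for glycine, alanine or serine, an aspartate codon, and then a codon for aspartate, glutamate, glycine or glutamine. Each of the 10 models held exactly 1 such match, against at least 1 match in 10.3% of 20326 mouse genes with a coding model. The pattern is wide enough to take in single members, such as Bad with its serine codon and Bmf with its glutamine codon. A match in all 10 is therefore no test against other genes. The 27 bases of each start at the first codon of the match, and the first codon and the aspartate codon are in capitals.
Bcl2: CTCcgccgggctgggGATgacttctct
Bcl2l1: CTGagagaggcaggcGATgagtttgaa
Bcl2l2: ATGcgggctgctggaGACgagtttgag
Mcl1: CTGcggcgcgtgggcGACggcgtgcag
Bak1: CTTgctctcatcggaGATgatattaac
Bok: CTGctgcgcttgggaGATgagctggag
Bid: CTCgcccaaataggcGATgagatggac
Bad: CTCcgaaggatgagcGATgagtttgag
Bcl2l11: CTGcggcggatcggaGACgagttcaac
Bmf: CTTcagtgtattgcaGACcagttccat
Only the stretch of Bcl2l2 among these begins with a methionine codon, and that of Bok is split by an intron. A match is a description of the letters and says nothing about binding.

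Hmgb1 served as the check of the labels. It measured 33.4, 45.5 and 31.9 RPKM in shCTRL A, B and C and 7.18, 5.79 and 3.80 RPKM in shHMGB1 A, B and C, so 15.1% of the control mean was left (limma adjusted p = 0.0269). Depth over the listed genes was 12870502 to 23431778 reads per library, and the members had 103 to 4324 reads in a library, which gives a counting error of 1.52% to 9.85% of the value. The level of Rn18s-rs5, an 18S ribosomal RNA sequence that the RiboMinus step is meant to remove, differed widely, with 22960, 62830 and 2177 RPKM in shCTRL A, B and C and 9004, 2567 and 623 RPKM in shHMGB1 A, B and C. Its part in the results below was not tested. Of 13 mesothelial markers 5 were measured, Msln, Pdpn, Efemp1, Bnc1 and Gas1, and the other 8, Wt1 and Calb2 among them, were not analysed here. All 5 log2 fold changes were negative, with a median of -0.64. Unadjusted p in limma was under 0.05 for 3 of the 5, Msln, Bnc1 and Gas1, all lower in shHMGB1, against 4.13% of all genes in that direction. The smallest adjusted p in limma was 0.249, for Msln, with means of 67.2 and 32.9 RPKM in shCTRL and shHMGB1. The summed level was 592 to 668 RPKM in shCTRL and 460 to 579 RPKM in shHMGB1, and Efemp1 alone averaged 476 and 428 RPKM of it. All 5 mesenchymal markers were measured, with a summed level of 6765 to 7254 RPKM in shCTRL and 7174 to 9590 RPKM in shHMGB1, and the 5 white blood cell markers were not analysed here. Of 8 genes of dividing cells 7 were measured, and their summed level was 13.0, 17.4 and 12.3 RPKM in shCTRL A, B and C and 18.4, 36.2 and 17.4 RPKM in shHMGB1 A, B and C. All 7 log2 fold changes were positive, with a median of 0.91, against 51.7% positive and a median of 0.01 over all tested genes. The unadjusted p in limma was under 0.05 for 3 of them, all higher in shHMGB1, against 3.78% of all genes in that direction. The smallest adjusted p in limma among these 7 was 0.493. The part of these marker lists in the results below was not tested. These are bulk samples, in which fewer cells of a type and less RNA per cell cannot be told apart.

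No member of the family passed the test between the groups. Of the 10 members, 0 had an adjusted p under 0.05 in limma (a linear model of log2(RPKM + 0.1) with variances shared over all genes, Benjamini-Hochberg adjustment over 11669 genes), against 3 of all 11669 tested genes, or 0.0257%. The unadjusted p was under 0.05 for 2 members, Bcl2 with higher and Bmf with lower values in shHMGB1, against 7.91% of all genes, 3.78% higher and 4.13% lower. On reads recovered from the table, limma's voom also called 0 members. The groups did not overlap for 2 members, Bcl2 and Bid, both with higher values in shHMGB1, against 6.90% of all genes in that direction, and for 0 members with lower values, against 7.07%. These member counts rest on 1 or 2 genes each and are read as no more than that. Log2 fold changes, shHMGB1 over shCTRL, were positive for 7 members and negative for 3, with a median of 0.10, against 51.7% positive and a median of 0.01 over all tested genes. With 3 libraries in each group an exact permutation test of 1 gene cannot give a p under 0.1.

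**Figure D1:**
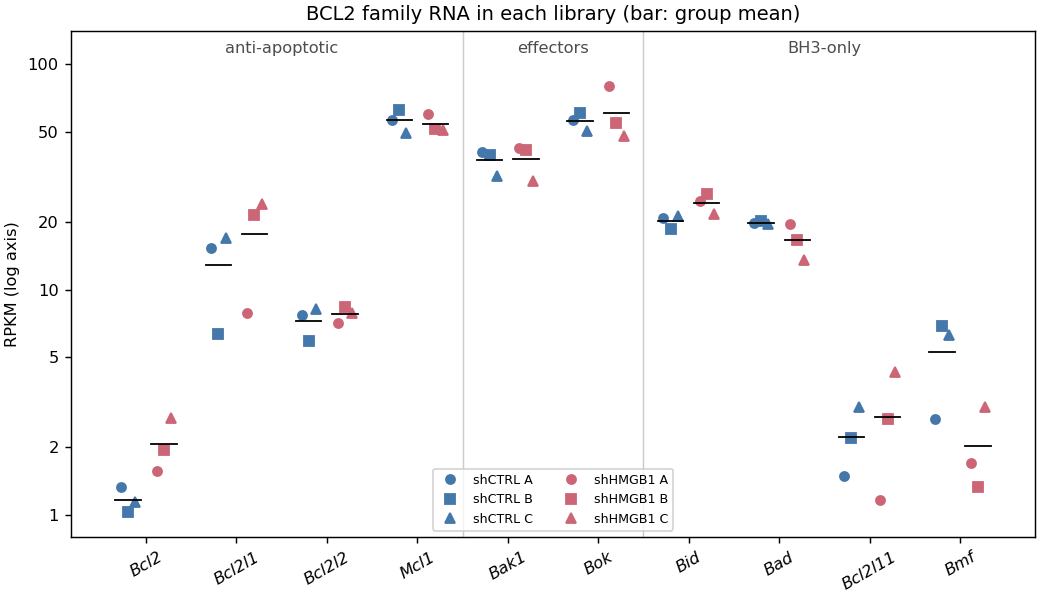
RPKM on a log axis of the 10 BCL2 family genes in each of the 6 libraries, with shCTRL in blue, shHMGB1 in red, a symbol for each replicate letter and a black bar at each group mean. Bok and Mcl1 sit at the top in both groups, with shHMGB1 A the highest point of Bok at 79.7 RPKM, the shHMGB1 points of Bcl2 lie above its shCTRL points, and Bcl2l1, Bcl2l11 and Bmf spread most within a group.

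Among the anti-apoptotic members, Mcl1 was the most abundant and one of the steadiest. MCL1 is a short-lived protein, made and broken down quickly. Mcl1 measured 56.7, 63.0 and 49.5 RPKM in shCTRL A, B and C and 60.4, 51.5 and 50.9 RPKM in shHMGB1 A, B and C. The groups overlapped throughout, and the highest of the 6 values was 1.27 times the lowest. Its log2 fold change was -0.05 ± 0.16 (SE; 95% interval -0.42 to 0.32; limma adjusted p = 0.913), or 0.30 when the libraries were rescaled to equal sums, a step that lifted the median of all genes to 0.36. On the linear scale the interval runs from 0.746 to 1.25 times the control level. The gene lies on the plus strand at chr3:95658788-95663176 (GRCm38), and its BH3 stretch is in exon 1 of 3, at chr3:95659436-95659462.

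Bcl2, the founding member, which encodes an anti-apoptotic protein that binds BIM, had the lowest mean level of the 10 over all 6 libraries. It was above Bcl2l11 in shHMGB1 A and above Bmf in shHMGB1 B. In the shHMGB1 group alone Bmf had the lower mean, at 2.015 RPKM against 2.067 RPKM for Bcl2. Bcl2 measured 1.33, 1.04 and 1.15 RPKM in shCTRL A, B and C (167, 103 and 268 reads) and 1.56, 1.95 and 2.69 RPKM in shHMGB1 A, B and C (279, 394 and 367 reads). Every shHMGB1 library was above every shCTRL library, with the highest value in shHMGB1 C and the narrowest gap between shCTRL A and shHMGB1 A. Means were 1.17 ± 0.15 and 2.07 ± 0.58 RPKM (SD, n = 3 each), which is a log2 fold change of 0.74 ± 0.26 (SE; 95% interval 0.15 to 1.33) in the model and a ratio of 1.67. The unadjusted p was 0.0204 and the adjusted p was 0.532 in limma, and 3.82% of all tested genes had a smaller p. The adjusted p ranged from 0.18 to 0.999 over the 16 alternatives that tested it, and the log2 fold change was positive in all 16. The shHMGB1 library with the most Bcl2 was the one with the least Rn18s-rs5, and the shCTRL library with the least Bcl2 was the one with the most. The order did not hold throughout, since shCTRL C, with the second lowest Rn18s-rs5 level, had less Bcl2 than shCTRL A. The gene lies on the minus strand at chr1:106538178-106714274, with the BH3 stretch in exon 1 of 2, at chr1:106712575-106712601. Its exons share 558 bases, 6.09% of their length, with the antisense gene D630008O14Rik, and the sources used here do not say whether reads were counted by strand.

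Bcl2l1 differed more between cultures of a group than between the groups. It encodes BCL-XL, and a shorter splice form, BCL-XS, acts the opposite way and is not separated in values per gene. Bcl2l1 measured 15.4, 6.35 and 17.0 RPKM in shCTRL A, B and C and 7.85, 21.3 and 23.9 RPKM in shHMGB1 A, B and C. Replicate B was low in shCTRL and replicate A was low in shHMGB1, and the other 4 libraries lay at 15.4 RPKM or above. The estimated log2 fold change was 0.42 ± 0.50 (SE; 95% interval -0.74 to 1.59; limma adjusted p = 0.797). Without shCTRL replicate B it was -0.02, without shHMGB1 replicate A 0.93, without shHMGB1 replicate B 0.21 and without shHMGB1 replicate C 0.13. The gene is on the minus strand at chr2:152780668-152831728, and its BH3 stretch is in exon 2 of 3, at chr2:152829697-152829723.

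Bcl2l2 varied less and followed a like order of libraries. BCL-W is a close relative of BCL-XL best known from the testis and nervous system. Bcl2l2 measured 7.72, 5.92 and 8.19 RPKM in shCTRL A, B and C and 7.15, 8.35 and 7.92 RPKM in shHMGB1 A, B and C. As for Bcl2l1, shCTRL B and then shHMGB1 A were the lowest of the 6. Between the groups the log2 fold change came to 0.11 ± 0.18 (SE; 95% interval -0.31 to 0.53; limma adjusted p = 0.839) and -0.03 without shCTRL replicate B. For Mcl1 the same 2 libraries were the highest of the 6, with shCTRL B first. The gene is on the plus strand at chr14:54883377-54888234, its BH3 stretch is in exon 3, at chr14:54884517-54884543, and 594 bases of its exons, 13.3%, are shared with the readthrough model Gm20521.

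**Figure D2:**
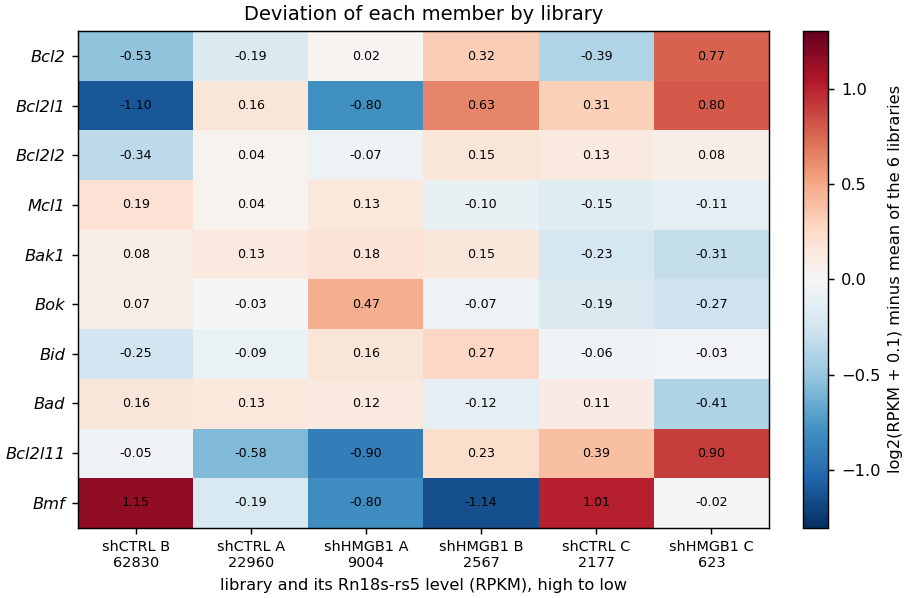
Deviation of log2(RPKM + 0.1) of each member from its mean over the 6 libraries, with libraries ordered from the highest to the lowest Rn18s-rs5 level (given in RPKM under each name). The rows of Bcl2l1 and Bcl2l11 run from blue to red and those of Bad and Bak1 from red to blue, with single libraries out of order, and the row of Bmf is red in shCTRL B and C and blue in shHMGB1 A and B.

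The effectors Bok and Bak1 were, with Mcl1, the 3 most abundant members. BAK1 sits in the outer mitochondrial membrane and forms pores once activated. Bak1 measured 41.0, 39.7 and 31.9 RPKM in shCTRL A, B and C and 42.3, 41.4 and 30.2 RPKM in shHMGB1 A, B and C. Replicate C was the lowest in both groups, and the groups overlapped almost fully. The log2 ratio of shHMGB1 to shCTRL was 0.01 ± 0.19 (SE; 95% interval -0.43 to 0.45; limma adjusted p = 0.987), and it changed sign without shCTRL replicate C (-0.10), without shHMGB1 replicate A (-0.08) and without shHMGB1 replicate B (-0.06). Bak1 lies on the minus strand at chr17:27019810-27029009, with its BH3 stretch in exon 4 of 6, at chr17:27022531-27022557. Gene models named Ggnbp1 on the other strand share 437 and 177 bases with its exons.

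BOK is an effector kept low by steady breakdown of the protein, and its RNA level need not follow its protein. Bok measured 56.6, 60.7 and 50.7 RPKM in shCTRL A, B and C and 79.7, 55.1 and 48.0 RPKM in shHMGB1 A, B and C. One library, shHMGB1 A, stood above the rest, and the other 5 lay between 48.0 and 60.7 RPKM with the groups mixed. Bok had a log2 fold change of 0.09 ± 0.21 (SE; 95% interval -0.40 to 0.58; limma adjusted p = 0.884), and -0.12 without shHMGB1 replicate A. The gene is on the plus strand at chr1:93685660-93695764, and its BH3 stretch runs from exon 2 into exon 3. Bax, the effector listed with the p53 targets, had means of 40.04 ± 6.30 RPKM (shCTRL) and 44.3 ± 9.13 RPKM (shHMGB1) (SD, n = 3 each; limma adjusted p = 0.825), against 37.5 ± 4.90 and 38.0 ± 6.73 RPKM for Bak1.

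Of the BH3-only members, Bid and Bad were abundant and Bmf and Bcl2l11 were not. BID is cut by caspase-8 downstream of death receptors, and the cut form activates BAK1 and BAX. Bid measured 20.7, 18.5 and 21.2 RPKM in shCTRL A, B and C and 24.6, 26.7 and 21.6 RPKM in shHMGB1 A, B and C. The groups did not overlap, although shHMGB1 C was only just above shCTRL C. Means were 20.1 ± 1.44 and 24.3 ± 2.57 RPKM (SD, n = 3 each), for a fitted log2 fold change of 0.27 ± 0.15 (SE; 95% interval -0.08 to 0.61; unadjusted p = 0.116, adjusted p = 0.707 in limma). It was positive in all 17 alternatives, from 0.20 to 0.62. The highest library, shHMGB1 B, was also the one with the highest summed level of the dividing-cell genes, whose part in this value was not tested. Bid lies on the minus strand at chr6:120891930-120916853, with its BH3 stretch in exon 4 of 6, at chr6:120897289-120897315. Its exons share 628 bases, 17.7%, with Bcl2l13 on the other strand, itself a distant relative with a role in mitochondrial clearance, which measured 4.77 ± 0.93 and 5.31 ± 1.73 RPKM.

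BAD binds BCL2, BCL-XL and BCL-W when survival signals stop, and kinases such as AKT keep it bound to 14-3-3 proteins otherwise. Bad measured 19.8, 20.1 and 19.5 RPKM in shCTRL A, B and C and 19.6, 16.6 and 13.6 RPKM in shHMGB1 A, B and C. The 3 shCTRL values were nearly equal, with a coefficient of variation of 1.62% beside a counting error of up to 5.39%, and shHMGB1 A lay among them while B and C lay below. For Bad the log2 fold change came to -0.27 ± 0.17 (SE; 95% interval -0.66 to 0.13; limma adjusted p = 0.722). It was 0.09 when libraries were rescaled to equal sums, where the median of all genes was 0.36. The gene is on the plus strand at chr19:6941861-6951899, with its BH3 stretch in exon 3 of 4, at chr19:6950792-6950818, and 524 bases of its exons, 20.5%, are shared with Gpr137 on the other strand.

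Bmf had the largest log2 fold change of the family in absolute size, and its groups overlapped. BMF is held at the actin cytoskeleton through a dynein light chain and is set free when cells lose attachment. Bmf measured 2.66, 6.92 and 6.26 RPKM in shCTRL A, B and C (176, 363 and 773 reads) and 1.71, 1.33 and 3.00 RPKM in shHMGB1 A, B and C (161, 142 and 216 reads). The libraries shCTRL B and C stood above the other 4, and shCTRL A lay just below shHMGB1 C. Means were 5.28 ± 2.29 and 2.02 ± 0.88 RPKM (SD, n = 3 each), for a fitted log2 fold change of -1.31 ± 0.42 (SE; 95% interval -2.29 to -0.33), a ratio of 0.403. The unadjusted p was 0.0151 and the adjusted p was 0.524 in limma, with 2.85% of all tested genes at a smaller p. The coefficient of variation was 43.4% in shCTRL and 43.5% in shHMGB1, beside a counting error of at most 7.54% and 8.39%. The log2 fold change was negative in all 16 alternatives that tested it, from -1.74 without shCTRL replicate A to -0.97, and the adjusted p ranged from 0.166 to 0.999. Bmf lies on the minus strand at chr2:118528757-118549687, with its BH3 stretch in exon 4 of 5, at chr2:118545100-118545126, and none of its annotated exons overlaps another gene.

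Bcl2l11 encodes BIM, which binds every anti-apoptotic member and is raised by FOXO factors when growth factors are lacking. Bcl2l11 measured 1.48, 2.19 and 3.00 RPKM in shCTRL A, B and C and 1.17, 2.67 and 4.31 RPKM in shHMGB1 A, B and C. Replicate A was the lowest and replicate C the highest in both groups, so the groups interleaved. Bcl2l11 had a log2 fold change of 0.15 ± 0.46 (SE; 95% interval -0.92 to 1.23; limma adjusted p = 0.913), and it changed sign without shCTRL replicate A (-0.10) and without shHMGB1 replicate C (-0.26). The gene is on the plus strand at chr2:128126038-128162547, with its BH3 stretch in exon 3 of 4, at chr2:128147150-128147176. The p53-driven BH3-only genes gave other values. Bbc3, which encodes PUMA, measured 3.03 ± 1.20 and 2.87 ± 0.99 RPKM (log2 fold change -0.05), and Pmaip1, which encodes NOXA, a partner of MCL1, measured 3.92 ± 0.55 and 5.89 ± 0.50 RPKM in shCTRL and shHMGB1 (SD, n = 3 each; log2 fold change 0.58, unadjusted p = 0.0127, adjusted p = 0.507 in limma).

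**Figure D3:**
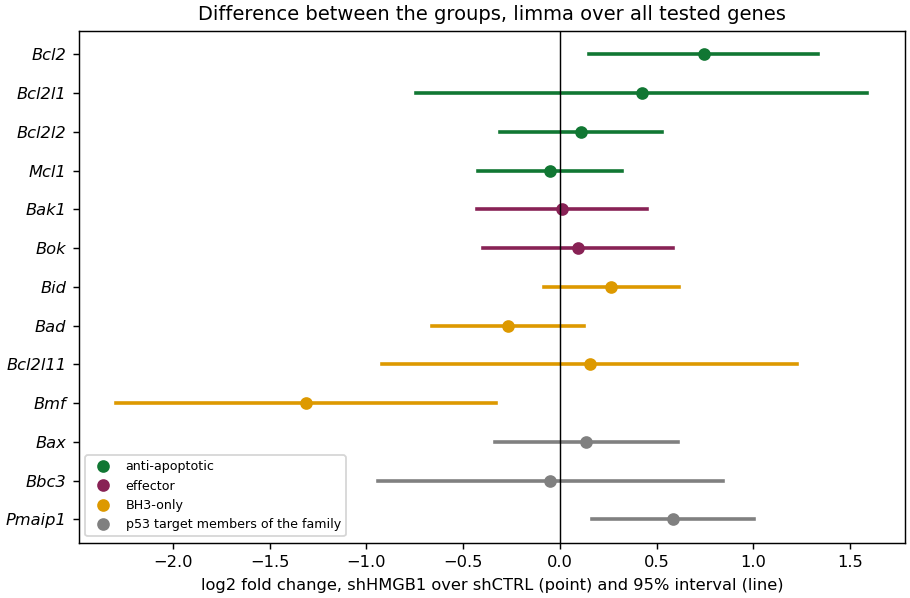
Log2 fold change, shHMGB1 over shCTRL (points), with its 95% interval from limma (lines) for the 10 members, coloured by class, and in grey for Bax, Bbc3 and Pmaip1. The intervals of Bcl2, Bmf and Pmaip1 leave out 0 before adjustment over all genes, and those of Bcl2l1, Bcl2l11 and Bmf are the widest.

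The order of levels per length, as the mean RPKM of the 6 libraries, was Bok (58.5), Mcl1 (55.3), Bak1 (37.8), Bid (22.2), Bad (18.2), Bcl2l1 (15.3), Bcl2l2 (7.54), Bmf (3.65), Bcl2l11 (2.47) and Bcl2 (1.62). Bok and Mcl1 could not be ranked, since Bok was above Mcl1 in 3 of 6 libraries. Mcl1 was above Bak1, and Bak1 above Bid, in 6 of 6 libraries with ranges that did not overlap. Bcl2l1 was above Bcl2l2 in 6 of 6 libraries with overlapping ranges. For each of the other neighbours the order held in 4 or 5 of 6 libraries with overlapping ranges, and no test of neighbours was made. In the shHMGB1 group alone the order at the low end differed, with means of 2.715 (Bcl2l11), 2.067 (Bcl2) and 2.015 RPKM (Bmf). The ranking depends on the gene length used. The length behind the deposited values equalled the summed exon length of GENCODE M21 for Bcl2 and Mcl1 and was shorter for the rest, as a proportion most of all for Bid, with 2189 against 3550 bases, and Bad, with 1575 against 2558 bases. With GENCODE M21 lengths Mcl1 came before Bok, and Bcl2l1 before Bad.

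Summed over the members, the RNA of the 3 classes kept similar proportions in both groups. The 4 anti-apoptotic genes summed to 81.1, 76.3 and 75.8 RPKM in shCTRL A, B and C and to 77.0, 83.1 and 85.5 RPKM in shHMGB1 A, B and C. Bok and Bak1 together gave 93.5 ± 9.57 and 98.9 ± 22.0 RPKM and the 4 BH3-only genes 47.4 ± 2.67 and 45.6 ± 2.74 RPKM in shCTRL and shHMGB1 (SD, n = 3 each). As a share of the summed RPKM of all 10, the anti-apoptotic class held 35.6 ± 1.37% and 36.5 ± 5.10%. The difference of 0.89 percentage points was smaller than the SD of the shHMGB1 group, whose libraries ran from 31.3% in A to 41.5% in C. It was 3.49 percentage points without shHMGB1 replicate A and -1.61 without shHMGB1 replicate C. Within the class the make-up differed between libraries. Mcl1 made up 22.7% to 28.1% of the summed RPKM of the 10 members and Bcl2l1 from 2.83% in shCTRL B to 11.6% in shHMGB1 C. The share of Bmf was 2.43 ± 1.07% in shCTRL and 0.913 ± 0.475% in shHMGB1, and that of Bcl2 was 0.536 ± 0.069% and 0.933 ± 0.342%, so the 2 members with an unadjusted p under 0.05 were both small parts of the total. No test was made on these sums, which leave out the family genes Bax, Bbc3 and Pmaip1. The effector gene Bax alone averaged 42.2 RPKM over the 6 libraries, against 37.8 RPKM for Bak1.

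**Figure D4:**
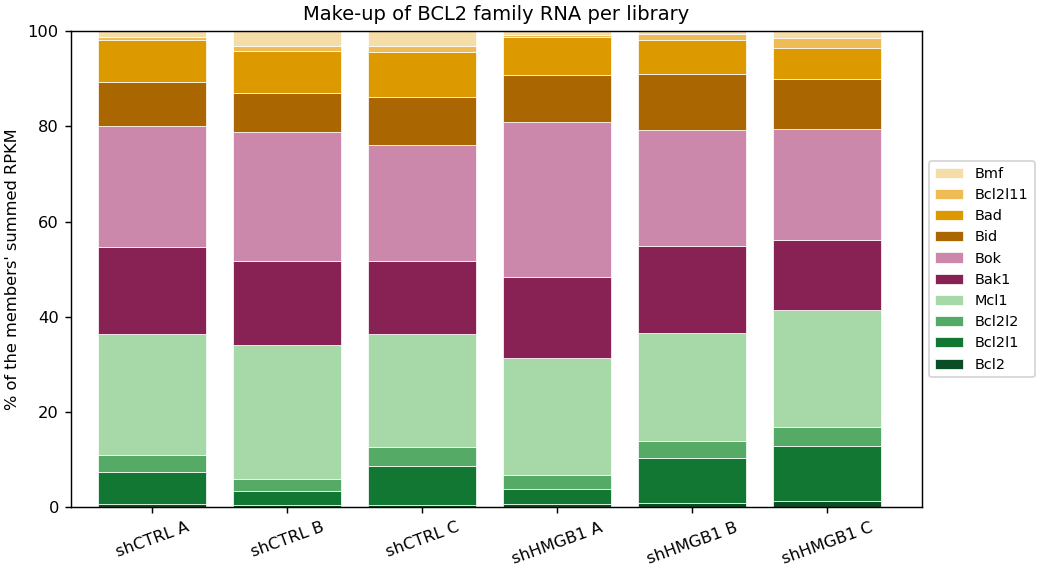
Share of each member in the summed RPKM of the 10 BCL2 family genes (stacked bars from 0 to 100%), per library, with anti-apoptotic genes in green, effectors in purple and BH3-only genes in orange. Mcl1, Bok and Bak1 fill most of every bar, and the Bcl2l1 segment is smallest in shCTRL B and shHMGB1 A.

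The genes whose pattern over the 6 libraries was most like that of Bok, by Pearson r of log2(RPKM + 0.1), were 3110002H16Rik (0.99), Slc25a44 (0.99) and Rpl3 (0.99), and those most like Mcl1 were Tbp (0.99), Abhd3 (0.99) and Cdc16 (0.99). Of the 11669 tested genes, 56 had an r above 0.95 with Bok and 96 with Mcl1, and each r rests on only 6 points. The libraries share their depth and ribosomal RNA level across all genes, so this is a description only.

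The wider pathway was read in 8 lists with 76 genes, of which 66 were tested. Of these, 0 passed the test, while the unadjusted p was under 0.05 in limma for 3 with higher and 3 with lower values in shHMGB1, and their median log2 fold change was 0.04. Over all tested genes the shares were 3.78% with higher and 4.13% with lower values, so the 66 held about as many as the background. On the death receptor arm, which leads to the cutting of BID, 0 of 7 passed and the median was 0.34. The receptor gene Fas had 1.91 ± 0.35 RPKM with the control hairpin and 3.56 ± 0.55 RPKM with the Hmgb1 hairpin (SD, n = 3 each; log2 fold change 0.87 ± 0.22 SE, unadjusted p = 0.00471, adjusted p = 0.395 in limma), with groups that did not overlap. Tnfrsf10b, which encodes the receptor of TRAIL, was the other with an unadjusted p under 0.05, at 4.16 ± 0.86 and 6.67 ± 0.97 RPKM, and was chosen after its values were seen. Both are also known as p53 targets. The more abundant Tnfrsf1a, a TNF receptor gene, and Tradd, its adaptor, had log2 fold changes of 0.34 and -0.07.

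Other genes of the BCL2 family, 7 tested of 15 with Bax, Bbc3 and Pmaip1 among them, had a median of -0.05 with 0 passing. Bnip3, which marks mitochondria for clearance and is induced by low oxygen, was far more abundant than any of the 10 members, at 202 ± 22.3 RPKM (shCTRL) and 149 ± 13.3 RPKM (shHMGB1) (SD, n = 3 each; log2 fold change -0.43, adjusted p = 0.584 in limma). Bcl2l12 measured 6.71 ± 0.27 and 4.58 ± 0.32 RPKM (log2 fold change -0.54 ± 0.16 SE, unadjusted p = 0.00898, adjusted p = 0.475 in limma). For both, each shHMGB1 library was below each shCTRL library.

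Of 8 apoptosome and caspase genes 0 passed, with a median of 0.09. Cycs, the gene of cytochrome c, had a log2 fold change of -0.49 and the initiator Casp8 0.03. The inhibitors of apoptosis and the mitochondrial proteins listed with them, 8 genes, had a median of 0.00 with 0 passing, and Htra2, Aifm1 and Birc6 had -0.15, -0.02 and 0.43. Outer membrane partners such as the VDAC channels, 7 genes, had a median of -0.09 with 0 passing, and Tmbim6 and Bag1, a partner of BCL2, had 0.14 and -0.30.

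Genes that act on single members gave 0 passing as well. For the breakdown of MCL1 the median of 7 genes was -0.12, and the ubiquitin ligase subunits Skp1a and Cul1 had log2 fold changes of -0.55 and -0.21. For the control of BAD the median of 14 genes was 0.26 with 12 positive, against 51.7% positive and a median of 0.01 over all tested genes, and the 14-3-3 genes Ywhaz and Ywhaq had 0.41 and -0.45. Ywhaq had the smallest p of that list (unadjusted p = 0.0299, adjusted p = 0.58 in limma) and non-overlapping groups at 75.5 ± 5.60 and 55.7 ± 8.66 RPKM. For BIM and BMF the median of 8 genes was 0.14, and the dynein light chain gene Dynll1 had -0.13, the stress factor gene Ddit3 -0.07 and Foxo1 0.73 at a level of 0.470 ± 0.265 and 0.948 ± 0.780 RPKM. Dynll2, the other dynein light chain gene of the list, was named after its values were seen and had 0.60 ± 0.51 (SE; limma adjusted p = 0.762).

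**Figure D5:**
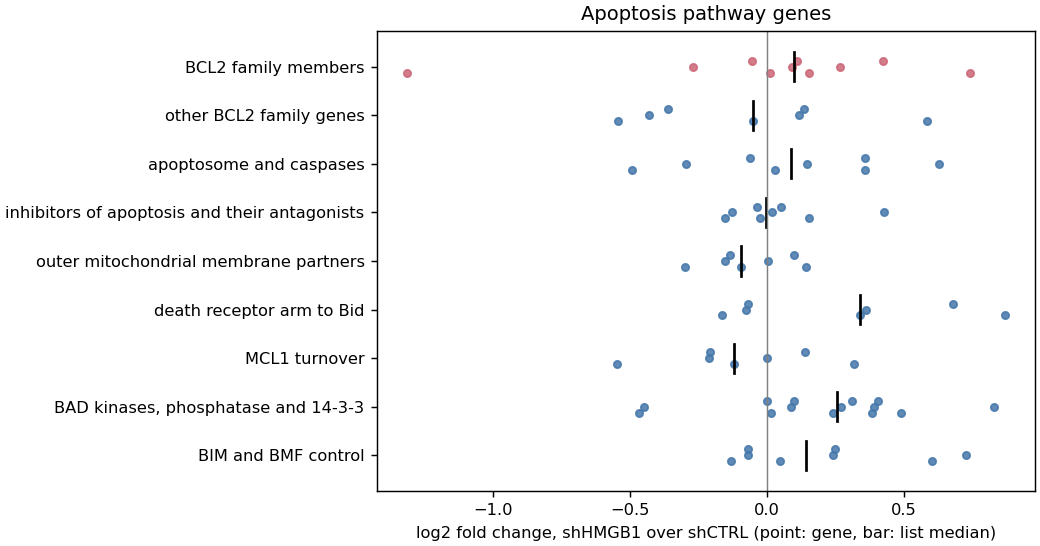
Log2 fold change, shHMGB1 over shCTRL, of each tested gene of the BCL2 family members (red) and of 8 apoptosis pathway lists (blue), with a bar at each list's median. Most genes lie within 0.5 of 0, Bmf is the lowest point and Fas the highest.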

How the data were processed

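RNA-seq of 6 libraries was analysed, 3 shCTRL and 3 shHMGB1. The submitters' processing notes name STAR 2.5.3a, Trimmomatic 0.32, edgeR and featureCounts, with builds mm10 and GRCm38. The values the authors deposited are log2 RPKM, 1 per gene and library, and were raised as powers of 2. Base 2 was checked by summing RPKM times exonic kilobases, which gave 1330000 to 1570000 with base 2 and 15400000 to 66400000 with base e. The sources used here give no gene model, strand or gene filter.

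Reads were recovered from the steps between values, after taking off a prior of 0.25 reads, itself scaled to each library's size. Library sizes were found from 1610 single-transcript genes, 90.1% of whose values were whole within 0.05 reads. In 3 libraries the size was below the reads over the listed genes. These were shCTRL A (13699994 against 13858333), shCTRL B (10871390 against 12870502) and shHMGB1 C (14893871 against 15096304). The sizes behind the values are therefore not plain totals of reads, and the sources used here do not say how they were scaled. A whole-number gene length then made all 6 values whole within 0.02 reads for 12132 of 12134 genes, and for 0 of 300 genes at wrong library sizes. All 10 members had a single such length. Counting errors cover counting only, since PCR copies were not marked.

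Groups were compared with limma (3.58.1, R 4.3.3), fitted to log2(RPKM + 0.1) of the 11669 genes averaging 0.5 RPKM or more, group as the only term, eBayes with trend and robust, two-sided, Benjamini-Hochberg adjusted at 0.05. It was tested on simulated data. Fold changes understate low genes. No 2 libraries shared values for more than 2 genes. Members, pathway lists and alternatives were chosen with earlier results of these data known. The text names all members, Hmgb1, Bax, Bbc3, Pmaip1 and, per list, the 2 most abundant genes and the one with the smallest p, and for Bok and Mcl1 the 3 genes of highest r. Among the pathway genes, Tnfrsf10b, Bcl2l13 and Dynll2 were named outside this rule. One gene that this rule names is not reported here. Gene locations and BH3 stretches are from GENCODE M21 (GRCm38). Overlaps count from 1 shared exonic base.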

Additional observations from a re-analysis of the deposited data

How the results depend on the processing

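In each of 17 alternatives 0 of the BCL2 family members and 0 of the pathway genes that it tested passed. The alternative with genes of at least 5 RPKM did not test Bcl2, Bcl2l11, Bmf or the pathway genes below that level. The number of all genes called moved from 3 to 0 among genes of at least 5 RPKM, where fewer genes were tested, to 5 with libraries rescaled to equal sums and to 21 with array quality weights. It ran from 0 to 8 when 1 library was left out, with 0 without shCTRL replicate B, shCTRL replicate C or shHMGB1 replicate B and 8 without shHMGB1 replicate A. The cause was not tested. With the replicate letter as a block it was 7. The letters were not taken as pairs, since they are not said to mark a shared batch. Deviations of shCTRL and shHMGB1 libraries of 1 letter correlated at 0.15, -0.10 and 0.48 for A, B and C. Those of unlike letters correlated at -0.65 to 0.54, and with 3 libraries per group such values cannot settle the pairing. The block changed no member's call. The members' median log2 fold change was 0.46 with equal sums, against 0.36 for all genes. There Mcl1 had 0.30 and Bad 0.088, both reversed in sign but below the median of all genes. Leaving out 1 library at a time also turned the sign of 6 members, whose log2 fold changes then ran from -0.26 to 0.64 for Bcl2l11, -0.023 to 0.93 for Bcl2l1, -0.029 to 0.20 for Bcl2l2, -0.14 to 0.030 for Mcl1, -0.12 to 0.25 for Bok and -0.10 to 0.17 for Bak1. Bcl2, Bid and Bmf kept their sign in every alternative that tested them. The difference in the anti-apoptotic share was 0.80 percentage points with GENCODE M21 lengths (chosen after seeing the data) and -1.61 to 3.49 when 1 library was left out. Depth gave counting errors of at most 9.85% for the members, and each group had 3 libraries.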
